A study of Drosophila melanogaster with 62 samples.

Results

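The comparison is between 2 knockdown lines on the control diet: fat bodies with p53 RNAi against fat bodies with Stat92E RNAi, in female larvae with the r4-GAL4 driver on food with 0.15 M sucrose. Both lines express a hairpin RNA from the same driver, so that what any RNAi line shares is on both sides. The libraries were chosen by their labelled genotype, driver, sex and diet, and every gene was kept. They are 7 of the 61 libraries in the deposited table (62 samples in the labels): 3 for p53 RNAi, where the labels list 4 samples and 1 was not analysed here, and 4 for Stat92E RNAi.

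All animals were Drosophila melanogaster females taken as wandering third-instar larvae, at the end of larval growth. All carried UAS-Dcr2, a transgene that strengthens RNAi, and r4-GAL4, which drives expression in the larval fat body. The p53 RNAi larvae came from a cross to VDRC stock 103001 and the Stat92E RNAi larvae from a cross to stock 106980, so each knockdown rests on a single stock. The experiment held FOXO RNAi larvae (stock 106097) and control larvae with no hairpin (stock 60100) as well, and all 4 genotypes were also raised on a high-sugar diet with 0.7 M sucrose. Each of these 8 groups had 4 libraries apart from p53 RNAi at 0.15 M, 31 in all. Fat bodies were sheared out and floated by centrifugation instead of being dissected one by one, and total RNA depleted of ribosomal RNA was sequenced. The series asked how the transcripts of this tissue change with dietary sugar and with RNAi against transcription factors.

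The fat body of the fly larva stores fat, glycogen and protein and is the main source of the antimicrobial peptides of the blood. The Toll pathway drives Drosomycin and the small secreted peptides of the Bomanin, Daisho and Baramicin families, whereas the IMD pathway drives the Diptericins, Attacins and Cecropins. Stat92E is the only STAT factor of the fly and acts at the end of the JAK/STAT pathway, whose fat body targets include the Turandot stress peptides. The factor p53 is best known for turning on death and repair genes after DNA damage, and in the larval fat body it has been tied to the response to nutrients. In this contrast a transcript that depends on Stat92E would be higher in p53 RNAi, and one that depends on p53 would be lower. A difference in either direction can come from either line, so control values are given beside many of the genes.

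Values were FPKM, fragments per kilobase of transcript and per depth of the library, that had also been scaled so that 2464 genes reached 1 in each of the 7 libraries. They are called scaled FPKM and are relative. The totals of the 7 libraries were 52346.2 to 73235.3 and 7375 to 8844 genes were above 0. Counting values at the lower bound of each library as single fragments, 6.31 to 20 fragments lay behind 1 scaled FPKM for each kb of transcript, so low values rest on few reads. Some libraries stood apart. Over the 2521 genes tested, p53 RNAi libraries 2 and 3 were the least alike of their group (Pearson r of log2 values 0.95), and library 1 lay between them in 75.1% of genes. Libraries 2 and 3 lay between the others of their group in 14.6% and 10.4%. In Stat92E RNAi, FOXO RNAi and controls at 0.15 M, library 1 lay between libraries 3 and 4 in 53.5%, 62.3% and 67.8%. The tests below treat every column as a separate replicate. Whether p53 RNAi library 1 is independent of libraries 2 and 3 was not tested. Stat92E RNAi library 2 had r of 0.949 to 0.95 with the others of its group, which reached 0.986 among themselves. Values of p53 RNAi libraries correlated with those of Stat92E RNAi libraries at 0.927 to 0.974. The headings of the p53 RNAi columns at 0.15 M follow another format than those of the other groups, one that the table also uses for male samples, and which sample each holds is not settled. The yolk protein gene Yp3, listed as a readout of sex, was at 0.614, 0.714 and 0.229 in these 3 libraries. It was at 0.768, 0.0974, 1.45 and 0.314 in Stat92E RNAi and at 0.211 to 1.93 in controls. These ranges overlap and male libraries were not used, so Yp3 does not settle the sex of the p53 RNAi columns. Their headings name p53 and r4, however, and in the labels every p53 RNAi sample and every r4 sample is female.

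The targeted transcripts were read first. Stat92E was at 1.5, 1.1 and 2.21 scaled FPKM in p53 RNAi libraries 1 to 3, against 0.494, 0.331, 0.631 and 0.318 in the Stat92E RNAi libraries. The groups did not overlap, and the Stat92E RNAi mean was 27.6% of the p53 RNAi mean (exact two-sided permutation p = 0.0286, the smallest that 3 against 4 allows). In the fit over all genes with limma the difference was 0.83 ± 0.20 (SE) on the log2 scale, adjusted p = 0.029, and 0.67 with adjusted p = 0.27 without p53 RNAi library 3. Set against the control larvae, Stat92E stood at 59.9% in p53 RNAi and at 16.5% in Stat92E RNAi. At 0.7 M it averaged 0.452 in p53 RNAi and 0.233 in Stat92E RNAi (SD 0.0866 and 0.0941, n = 4 each; exact two-sided permutation p = 0.0571).

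The p53 transcript itself was close to the limit of detection. It was at 0.0962, 0.0975 and 0.0775 in the p53 RNAi libraries, against 0.134, 0.107, 0.118 and 0.137 in the Stat92E RNAi libraries, about 2.11 to 2.65 and 1.46 to 3.71 fragments if the depth estimate holds. No p53 RNAi library reached the lowest Stat92E RNAi library, and the p53 RNAi mean was 72.7% of the other. The exact two-sided permutation p on the log2 scale was 0.0571, where 0.0286 is the smallest possible, so the knockdown of p53 could not be established at this depth. Controls were at 0.0982, 0.122, 0.162 and 0.123, and the p53 RNAi mean was 71.6% of the control mean. At 0.7 M the means were 0.14 in p53 RNAi and 0.172 in Stat92E RNAi (exact two-sided permutation p = 0.429, n = 4 each). The gene white, which also marks many transgenes, was at 11.4 to 17.4 in p53 RNAi and 13.4 to 19.5 in Stat92E RNAi, against 2.58 to 3.89 in controls. Dcr-2 was at 11.8, 11.4 and 12.2 in p53 RNAi, against 11.9, 23.2, 10.9 and 12.6 in Stat92E RNAi, and neither gene passed the test at 0.15 M.

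At an adjusted p under 0.05, 68 of the 2521 genes tested differed between the lines (2.7%): 33 were higher in p53 RNAi (1.31%) and 35 were lower (1.39%). The test was limma's on log2(scaled FPKM + 1) with a mean for each of the 8 groups, over genes whose mean was 1 or more across the 31 libraries. A change below is p53 RNAi minus Stat92E RNAi on that scale with its standard error. The added 1 understates the change of low genes. At an unadjusted p under 0.05 there were 416 genes, and in 486 (19.3%) the libraries of the lines did not overlap, 64 of them among the 68. The rises were the larger: 20 of 33 were past 2-fold with a median change of 1.09, against 4 of 35 falls with a median of -0.63. The median of all genes tested was -0.04. The labels do not say that libraries came from separate cultures, so the spread behind each p-value may be technical.

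**Figure D1:**
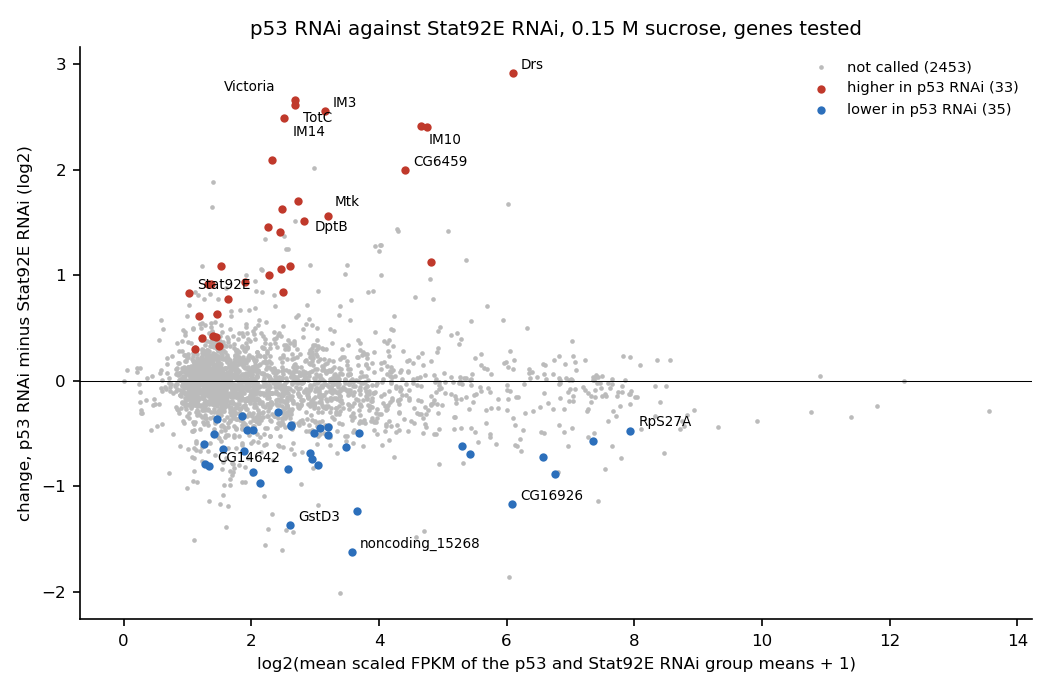
Change between p53 RNAi and Stat92E RNAi at 0.15 M (log2, vertical axis) against the mean level of the 2 groups (log2 of scaled FPKM + 1, horizontal axis), one point for each of the 2521 genes tested; coloured points are the 68 called. The called rises reach 2.92 (Drs) and the called falls -1.62 (noncoding_15268).

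How far these calls rest on single libraries was checked before going to the genes. Left out one at a time, the 7 libraries gave between 7 and 94 calls. Without p53 RNAi library 3 only 7 genes were called (6 higher, 1 lower), all among the 68, and all 68 kept their direction. Without p53 RNAi library 1 there were 21 calls, and without Stat92E RNAi libraries 1, 2 or 3 there were 29, 32 and 33. With the spread estimated from the 7 compared libraries alone no gene was called by limma (442 at an unadjusted p under 0.05; lowest adjusted p 0.0701). The 68 calls were made with the spread estimated over all 8 groups. The genes called in each of the 7 fits without 1 library were 6: Drs, DptB, IM3, CG6459 and CG32425, which were higher in p53 RNAi, and CG14642, which was lower.

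Of the 33 rises, 15 belonged to lists of immune genes, Stat92E itself among them, and of the 35 falls none did; 45 of all 2521 genes tested (1.79%) were in these lists. The rises come to 13 if near-identical copies, described below, are counted once. These lists were drawn up with earlier results of these data known. Among 21 antimicrobial peptide genes, 10 passed the filter on low values and 5 of them rose: Drs, Mtk, DptB, Dpt and AttC. The median change of the 10 was 1.05 and all 10 were positive, where the median over all genes tested was -0.04 with 1069 of 2521 positive. Summed over the list, the peptides were at 262, 221 and 321 in p53 RNAi, against 83.6, 75.1, 107 and 74.2 in Stat92E RNAi and 72.3 to 121 in controls. Every p53 RNAi library was above every Stat92E RNAi and every control library in this sum. The largest member was Drs in p53 RNAi libraries 1 and 3 and dro5 in library 2. The gene dro5 was not called and the lines overlapped. It was at 67.2, 96.3 and 29.1 in p53 RNAi, against 35.2, 30.2, 63 and 21.5 in Stat92E RNAi (0.71, limma adjusted p = 0.70). Without p53 RNAi library 3, 2 of the 10 were called and the median was 1.00.

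Drosomycin (Drs), the antifungal peptide that serves as the standard readout of Toll signalling, had the largest change of all genes tested. It was at 115, 64.9 and 182 scaled FPKM in p53 RNAi, against 15.5, 10.3, 14.6 and 15.5 in Stat92E RNAi, a ratio of means of 8.64 (change 2.92 ± 0.36, limma adjusted p = 3.4e-05). The lowest p53 RNAi library was above the highest of the other line, and also above the controls at 24.9, 44.7, 22.7 and 27.9. Stat92E RNAi lay below all 4 controls. Drs passed in each of the 7 fits without 1 library and had an adjusted p of 0.0015 without p53 RNAi library 3. At 0.7 M the direction was not kept: 14.2, 7.61, 16.7 and 8.84 in p53 RNAi, against 17.6, 18.6, 16.1 and 17.8 in Stat92E RNAi (change -0.59, adjusted p = 0.49), and the difference between the diets passed the test (3.51 ± 0.49, adjusted p = 0.00011).

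The Diptericins, small peptides made on IMD signalling against Gram-negative bacteria, differed less. DptB was at 9.02, 6.58 and 13.2 in p53 RNAi, against 2.3, 2.94, 2.79 and 2.34 in Stat92E RNAi (1.52 ± 0.26, limma adjusted p = 0.0017). The lines did not overlap. The controls, at 0.429 to 1.86, were below both. DptB was also higher in p53 RNAi at 0.7 M (0.88, adjusted p = 0.046). Its neighbour Dpt, which the current annotation names DptA, was at 6.58, 5.19 and 8.9, against 1.23, 3.19, 2.35 and 1.31 (1.41 ± 0.35, adjusted p = 0.03). The controls, at 1.55 to 3.21, overlapped Stat92E RNAi.

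Mtk (Metchnikowin), an antifungal peptide, was even across the p53 RNAi libraries: 12.6, 12.9 and 12.5, against 2.71, 5.77, 3.63 and 2.95 in Stat92E RNAi (1.56 ± 0.40, limma adjusted p = 0.035). Controls were at 2.41 to 4.18, overlapping Stat92E RNAi and below all p53 RNAi libraries. The adjusted p was 0.23 without p53 RNAi library 3, although the change of 1.57 was the same size. AttC, an Attacin, was at 3.86, 3.04 and 4.75 in p53 RNAi, against 1.61, 0.931, 1.75 and 1.93 in Stat92E RNAi (0.94 ± 0.21, adjusted p = 0.016), and was called again at 0.7 M (0.72, adjusted p = 0.046). AttA missed the threshold (20.1, 13.5 and 29.6, against 10.1, 9.49, 7.33 and 11.7; 1.00 ± 0.28, adjusted p = 0.052), with no overlap between the lines.

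The Cecropins were below the filter. CecC was at 1.33, 1.28 and 1.89 in p53 RNAi, against 0, 0.258, 0.301 and 0 in Stat92E RNAi, and was listed at 0 in the 4 controls. Without the filter the gene was called (1.14, limma adjusted p = 6.35e-05), as were CecA2, AttD and CecA1. Of the 11 antimicrobial peptide genes below the filter, 6 were above 0 in any of the 7 libraries. In that fit 4 of the 11 were called higher in p53 RNAi and none lower. Over all 9851 genes in it, 89 were called higher and 47 lower. AttD was at 0.394, 0.586 and 0.178 in p53 RNAi and listed at 0 in all Stat92E RNAi and control libraries. Another 5 members, among them Defensin (Def), were listed at 0 in all 7 libraries.

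The peptides that the Toll pathway induces beside Drs form the other large group. Of 19 genes found, 10 were tested and 5 rose: IM3, IM14, IM10, CG33470 and CG16836. The median change was 1.95, and the sums over the list were 182, 70.1 and 333 in p53 RNAi, against 74.2, 67.7, 84 and 65.1 in Stat92E RNAi and 46.1 to 70.4 in controls. Here p53 RNAi library 2 lay within the Stat92E RNAi range while libraries 1 and 3 were far above it, and without library 3 only IM3 was called. IM3 (BomS3, a Bomanin) was at 14.4, 4.07 and 25.3 in p53 RNAi, against 1.45, 1.26, 0.848 and 1.12 in Stat92E RNAi (2.56 ± 0.43, limma adjusted p = 0.0017; 0.047 without library 3). The lines did not overlap, but 1 control library was at 8.57 and the others at 1.08 to 1.64.

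IM10 and CG33470, Baramicin genes that the current annotation calls BaraA2 and BaraA1, gave nearly the same numbers. IM10 was at 38.6, 10.5 and 80.3 in p53 RNAi, against 5.42, 4.95, 5.17 and 5.41 in Stat92E RNAi (2.42 ± 0.46, limma adjusted p = 0.0052). Control library 2 was at 15.5 for IM10, above p53 RNAi library 2, and the other controls were at 4.73 to 6.81. CG33470 was at 41, 11.3 and 85.4, against 5.88, 5.37, 5.65 and 5.86, with control library 2 at 16.6. These are near-identical copies that lie 2 genes apart, so reads may have been split between them and they count as 1 observation. The same holds for PGRP-SC1a and PGRP-SC1b below.

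IM14 (Dso2, a Daisho peptide) was at 8.66, 0.284 and 18.9 in p53 RNAi, against 0.238, 0, 0.245 and 0 in Stat92E RNAi (2.49 ± 0.57, limma adjusted p = 0.019). Library 2 was barely above the other line and below control library 2 (0.735), and the adjusted p without library 3 was 0.27. CG16836 (BomT2) was at 7.16, 1.18 and 15.5, against 1.06, 1.5, 0.698 and 1.43 (1.63 ± 0.44, adjusted p = 0.045), with library 2 inside the Stat92E RNAi range. Of the 9 members below the filter, 6 were above 0 in any of the 7 libraries. IM4 (Dso1) alone was called without the filter, at 3.76, 0.129 and 9.91 in p53 RNAi, against 0, 0, 0.164 and 0 in Stat92E RNAi (1.90, limma adjusted p = 0.041), with library 2 inside the Stat92E RNAi range. Among members that were not called, IM2 was at 4.09, 0.571 and 5.25 in p53 RNAi and listed at 0 in all 4 Stat92E RNAi libraries (limma adjusted p = 0.072). CG16712 (IM33) was at 45.4, 39.8 and 49.9, against 57.6, 46.1, 69.1 and 47.7 (-0.27 ± 0.41, adjusted p = 0.81), and CG15068 was at 2.35, 0.703 and 5.36, against 1.83, 6.01, 1.5 and 2.06.

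Receptors and signalling genes of the same pathways moved less. Of 9 peptidoglycan and glucan recognition genes tested, 2 rose, the amidase genes PGRP-SC1a and PGRP-SC1b, whose products break down peptidoglycan. PGRP-SC1a was at 2.18, 0.965 and 4.22 in p53 RNAi, against 0.666, 0.92, 0.35 and 0.904 in Stat92E RNAi (0.92 ± 0.20, limma adjusted p = 0.015), and library 2 was just above the highest of the other line. PGRP-SC1b was at 2.08, 0.872 and 4.08, against 0.651, 0.731, 0.308 and 0.905 (0.92 ± 0.20, limma adjusted p = 0.012), with library 2 inside the Stat92E RNAi range. No gene of the Toll pathway (7 tested) or of the IMD pathway (3 tested) passed. The inhibitor cact, of the Toll pathway, was at 2.22, 1.9 and 2.61 in p53 RNAi, against 2.2, 1.66, 1.64 and 1.83 in Stat92E RNAi (0.19 ± 0.12, adjusted p = 0.41). Rel, the NF-kappaB factor of IMD signalling, was at 1.81, 1.67 and 2.37, against 1.04, 1.58, 1.02 and 1.2 (0.42 ± 0.16, adjusted p = 0.18), with no overlap. The thioester proteins TepII and TepIV, secreted complement-like factors, were not called either.

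**Figure D2:**
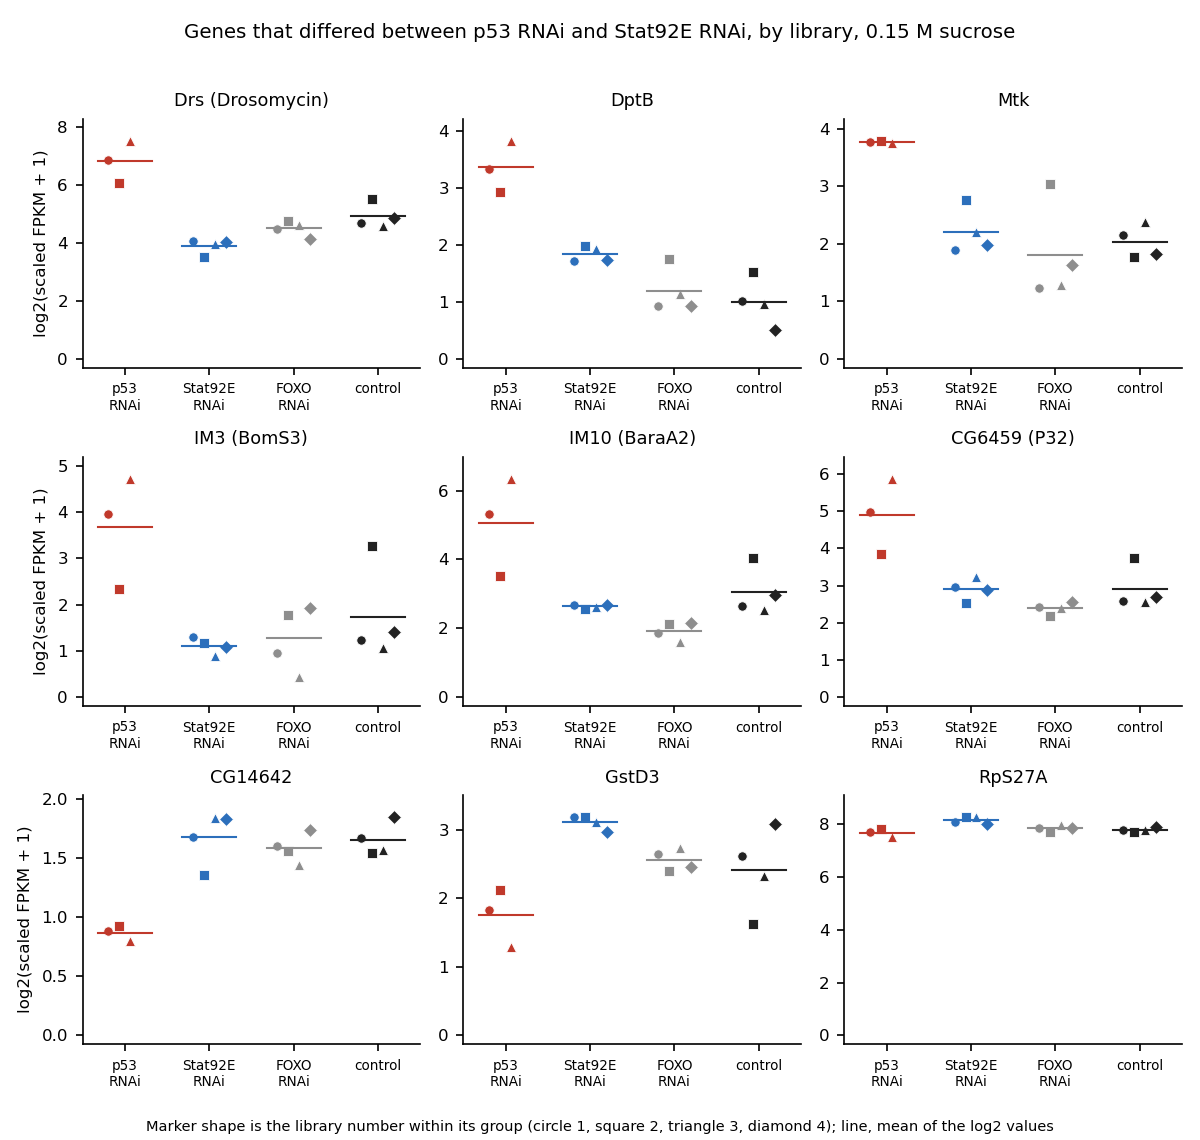
Level (log2 of scaled FPKM + 1) of 9 genes in each library of p53 RNAi, Stat92E RNAi, FOXO RNAi and control larvae at 0.15 M; marker shape is the library number and the line is the group mean. For Drs, DptB, Mtk, IM3, IM10 and CG6459 the 3 p53 RNAi libraries lie above all 4 Stat92E RNAi libraries, and for CG14642, GstD3 and RpS27A below them.

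The Turandot genes, secreted stress peptides that are known JAK/STAT targets, include 2 of the rises among 3 members tested. TotC was at 9.31, 1.94 and 19.9 in p53 RNAi, against 0.291, 0.413, 0.546 and 0.375 in Stat92E RNAi (2.61 ± 0.57, limma adjusted p = 0.014). The lines did not overlap. Controls were at 1.84, 21.6, 2.14 and 0.835, all above Stat92E RNAi and spread more widely than p53 RNAi. Victoria, the TotE gene, was at 9.07, 1.52 and 20.9 in p53 RNAi, against 0.353, 0.0926, 0.904 and 0 (2.67 ± 0.67, adjusted p = 0.031), while controls were at 0.494, 21, 0.356 and 0.915. All controls but library 2 were thus within or near the Stat92E RNAi range for Victoria. Without p53 RNAi library 3 the adjusted p was 0.26 for TotC and 0.30 for Victoria.

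The means at 0.7 M come from other libraries, but the 2 tests share the filter and the estimate of the spread. Both genes were called again at 0.7 M, and there the lines stood far apart. TotC changed by 3.96 (limma adjusted p = 4.24e-05) and about 111 to 216 fragments in p53 RNAi compare with 0.933 to 1.67 in Stat92E RNAi. Victoria changed by 2.98 (adjusted p = 0.0081) and was listed at 0 in the 4 Stat92E RNAi libraries. TotA, the most abundant Turandot, did not follow at 0.15 M: 36.1, 24.1 and 45.7 in p53 RNAi, against 39.2, 95.7, 48.3 and 29.6 in Stat92E RNAi (-0.48 ± 0.40, adjusted p = 0.59). At 0.7 M it was at 79, 105, 81.7 and 58.5 in p53 RNAi, against 18.4, 35.6, 15.8 and 17.3 (1.89, adjusted p = 0.004), and the difference between diets passed (-2.38 ± 0.54, adjusted p = 0.048). Other members were near or at 0: TotB and TotF were above 0 only in p53 RNAi libraries among the 7, and TotM, TotX and TotZ were listed at 0 in all 7. Socs36E, the feedback inhibitor of the pathway, was at 0.263, 0.115 and 0.451 in p53 RNAi, against 0.127, 0.111, 0.101 and 0.159, below the filter.

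**Figure D3:**
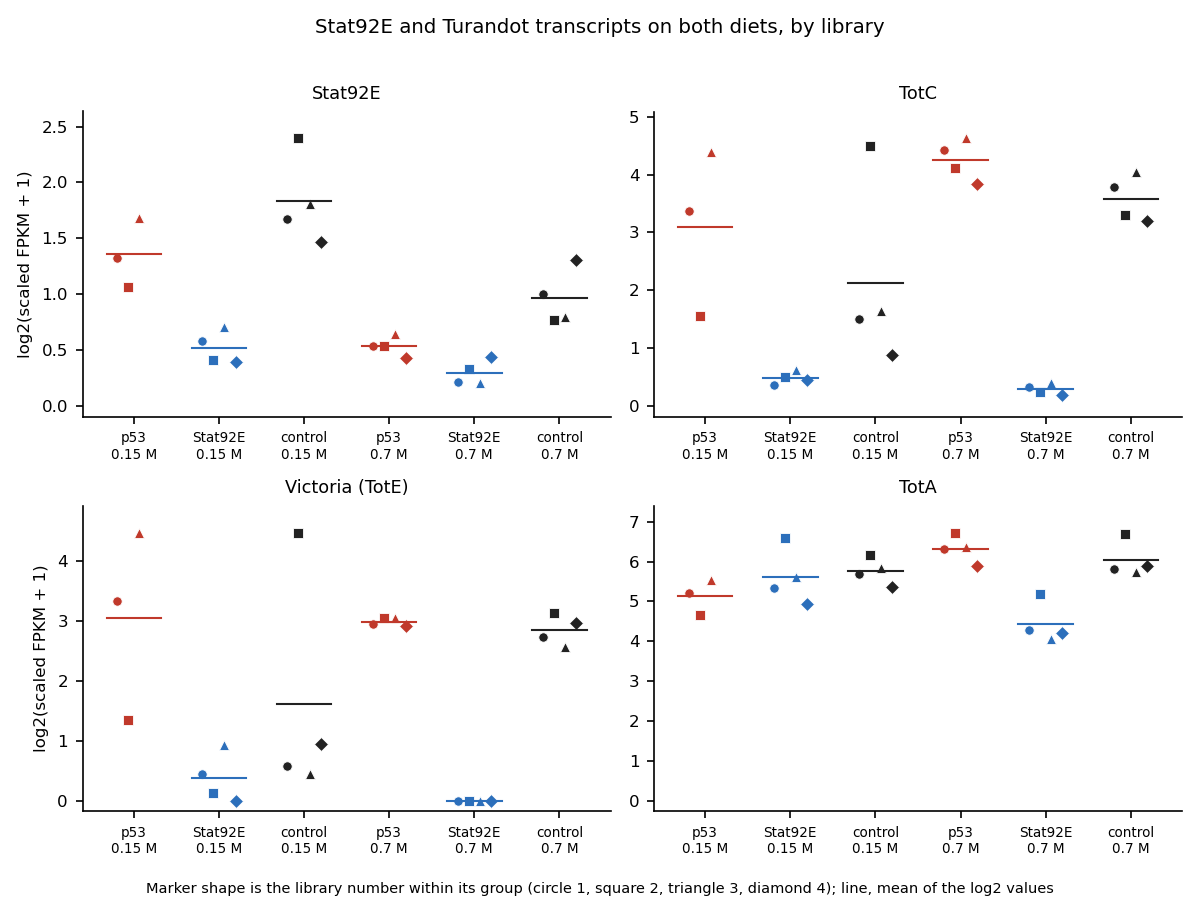
Level (log2 of scaled FPKM + 1) of Stat92E, TotC, Victoria and TotA in each library of p53 RNAi, Stat92E RNAi and control larvae, at 0.15 M on the left and 0.7 M on the right of each panel; marker shape is the library number and the line is the group mean. TotC and Victoria are below 1 on this scale in all Stat92E RNAi libraries on both diets, whereas TotA is lower in Stat92E RNAi than in p53 RNAi at 0.7 M alone.

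Other rises were mixed in kind. CG6459, annotated as P32, was at 30.6, 13.4 and 57.7 in p53 RNAi, against 6.86, 4.78, 8.31 and 6.38 in Stat92E RNAi (2.0 ± 0.33, limma adjusted p = 0.0016). The lines did not overlap, the controls were at 4.85 to 12.5, and the gene passed in each of the 7 fits without 1 library. CG8160 was at 8.27, 5.65 and 13.1, against 2.84, 0.35, 4.45 and 1.58 (1.71 ± 0.33, adjusted p = 0.0052). Jupiter, which encodes a microtubule-associated protein, was at 4.56, 5.19 and 8.37, against 0.938, 2.74, 1.4 and 1.25 (1.46 ± 0.39, adjusted p = 0.041), and betaTub60D, a beta-tubulin gene, was at 7.04, 4.6 and 10.3, against 3.32, 2.11, 2.33 and 3.48 (1.08 ± 0.28, adjusted p = 0.037). The last and the genes in the rest of this paragraph were chosen after their values were seen. CG12224 was at 42.8, 48.8 and 22.5, against 15.3, 14.7, 17.1 and 16.7 (1.13 ± 0.24, adjusted p = 0.012). It had its lowest value in p53 RNAi library 3 and its adjusted p without that library was 0.0025. CG32425 behaved likewise (2.31, 2.83 and 1.9, against 1.09, 0.926, 1.36 and 1.23; 0.63 ± 0.13, adjusted p = 0.0068). Smaller rises included pck, a septate junction gene (0.41), the SR splicing gene Srp54 (0.30) and the chaperonin subunit gene Tcp-1eta (0.33).

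MtnD, a metallothionein gene that binds metal ions, needs its libraries to be read one by one. It was at 6.41, 2.68 and 11 in p53 RNAi, against 0.0214, 5.42, 0.0148 and 0.0145 in Stat92E RNAi (2.10 ± 0.53, limma adjusted p = 0.031). Stat92E RNAi library 2 was inside the p53 RNAi range and the other 3 were near 0. The controls split in the same way, with 5.51 and 3.15 in 2 libraries and 0.0315 and 0.0823 in the others. MtnD is also the gene next to Stat92E on the chromosome. Both were lower in Stat92E RNAi, and whether the position has a part was not tested.

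Markers of other cells were listed because floated fat bodies can carry them along. Of 13 hemocyte markers (blood cells), 5 were tested and 3 rose. CG8193 (PPO2), a prophenoloxidase of crystal cells, was at 6.16, 4.22 and 9.3 in p53 RNAi, against 2.73, 2.06, 2.65 and 2.55 in Stat92E RNAi (1.06 ± 0.21, limma adjusted p = 0.0058). proPO-A1 (PPO1) was at 2.9, 1.7 and 4.36, against 1.11, 1.6, 1.22 and 1.08 (0.77 ± 0.19, adjusted p = 0.025), and srp, a GATA factor also active in fat body, at 2.01, 1.86 and 2.47, against 1.3, 1.27, 1.35 and 1.38 (0.42 ± 0.11, adjusted p = 0.036). The lines did not overlap in any of the 3. Without the filter on low values CG42640 (PPO3) was called too, at 0.447, 0.0521 and 1.05 in p53 RNAi, against 0.0627, 0.0243, 0.0353 and 0.0605 in Stat92E RNAi (0.48, limma adjusted p = 0.022), with library 2 inside the Stat92E RNAi range. Summed over the 13 markers the level was 37.6 to 43.8 in p53 RNAi, 25.1 to 33.5 in Stat92E RNAi and 34.9 to 54.4 in controls. The largest part of the sum in the 7 compared libraries was nimC2, which was not called. It was at 22.3, 24.3 and 18.6 in p53 RNAi, against 19.3, 13.9, 17 and 20.7 in Stat92E RNAi (0.29, limma adjusted p = 0.73). Pxn, the other tested marker, was at 4.85, 4.53 and 5.38, against 6.02, 4.07, 4.6 and 6.57 (-0.08, adjusted p = 0.89). The defining plasmatocyte marker Hml was at 0.0382 to 0.161 in p53 RNAi and 0.0552 to 0.349 in Stat92E RNAi, and no marker was at 0 in all 7 libraries. In bulk tissue more cells of a type and more RNA per cell cannot be told apart, and the part of hemocytes in the immune rises was not tested.

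The other marker lists had no tested member called at 0.15 M. Gut markers (14 tested) summed to 213, 100 and 384 in p53 RNAi, against 118, 373, 98.4 and 125 in Stat92E RNAi, so p53 RNAi library 3 and Stat92E RNAi library 2 were both high. In 10 of the 14, the proteases Jon65Aiii, Jon65Aiv and deltaTry and the lysozymes LysB, LysD and LysE among them, these libraries were each the highest of their group. In the other 4, the proteases Jon65Aii, Jon99Cii, Jon99Ciii and Jon25Biii, they were each the lowest. Without the filter on low values 1 gut marker was called lower in p53 RNAi, the amylase gene Amy-p (-0.42, limma adjusted p = 0.041). When the mean of the gut markers on the log2 scale entered the fit as a covariate, 72 genes were called, 63 of them among the 68. That alternative was chosen after seeing the data. Salivary gland markers summed to 153 to 216 in p53 RNAi and 218 to 355 in Stat92E RNAi, cuticle markers to 81.5 to 147 and 45.3 to 87.5, and muscle markers to 19.5 to 20.5 and 19.3 to 38.5.

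The 35 genes that were lower in p53 RNAi formed no single list. Glutathione and antioxidant enzymes had 2 falls among 22 tested, both glutathione S-transferases, which conjugate toxic compounds. GstD3 was at 2.57, 3.38 and 1.45 in p53 RNAi, against 8.1, 8.14, 7.69 and 6.88 in Stat92E RNAi (-1.37 ± 0.26, limma adjusted p = 0.0052), with controls spread over both at 2.1 to 7.48. GstD10 was at 2.08, 2.04 and 1.45, against 3.72, 4.26, 5.94 and 3.17 (-0.86 ± 0.24, adjusted p = 0.049). Cyp4s3 was the single fall among 26 cytochrome P450 genes, at 7.8, 7.94 and 7.52, against 12.4, 14.5, 10.7 and 12.8 (-0.63 ± 0.16, adjusted p = 0.039), and the median of that list was -0.27. The lines did not overlap in any of these genes.

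Of 78 ribosomal protein genes tested, 2 fell. RpS27A, whose product is made as a fusion with ubiquitin, was at 206, 226 and 182 in p53 RNAi, against 268, 307, 306 and 255 in Stat92E RNAi (-0.47 ± 0.10, limma adjusted p = 0.01), and RpL15 at 132, 149 and 108, against 179, 244, 189 and 163 (-0.57 ± 0.15, adjusted p = 0.04). A further ribosomal gene outside the list, DmL37a (RpL37A), was at 72.2, 80.8 and 59.6, against 108, 135, 127 and 98.3 (-0.72 ± 0.19, adjusted p = 0.04). Here the controls (205 to 236 for RpS27A, 122 to 145 for RpL15, 58.6 to 82 for DmL37a) were within or close to the p53 RNAi range, and below every Stat92E RNAi library. The list's median was -0.12, and -0.00 without p53 RNAi library 3, where all genes had 0.01. The translation factor gene eIF-5A fell as 1 of 22 tested in its list (31.2, 27.2 and 31, against 44.8, 63.5, 42.2 and 37.9; -0.62 ± 0.17, adjusted p = 0.049).

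CG14642 was the only fall called in all 7 fits without 1 library. It was at 0.843, 0.894 and 0.743 in p53 RNAi, against 2.2, 1.57, 2.57 and 2.56 in Stat92E RNAi (-0.81 ± 0.11, limma adjusted p = 9.43e-05; 0.0023 without p53 RNAi library 3). The controls, at 1.91 to 2.6, overlapped Stat92E RNAi and lay above all p53 RNAi libraries. It was low in p53 RNAi at 0.7 M too (-0.64, adjusted p = 0.00052). Its mean is under 5 in both lines, so it is named outside the rule for the largest changes. CG7966 was at 5.12, 5.52 and 3.85, against 8.58, 9.08, 9.54 and 7.66 (-0.74 ± 0.16, adjusted p = 0.012), and at 0.7 M it fell by 0.66 (adjusted p = 0.013). The controls were at 6.61 to 11.2.

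Beside GstD3, the largest falls in size were noncoding_15268, CG9616 and CG16926. The RNA noncoding_15268 was at 4.17, 5.21 and 4 in p53 RNAi, against 12.1, 32.1, 14.1 and 11.1 in Stat92E RNAi (-1.62 ± 0.35, limma adjusted p = 0.012). CG9616 was at 6.33, 7.81 and 5.26, against 14.7, 22.3, 15.7 and 14.1 (-1.24 ± 0.24, adjusted p = 0.0052), and CG16926 at 41.2, 46.9 and 33.5, against 84, 128, 82.4 and 79.7 (-1.17 ± 0.25, adjusted p = 0.012). In all 3 the controls lay between the lines, and Stat92E RNAi library 2 was the highest of the 7. CG13962 (-0.88), CG7763 (-0.84), CG32068, the acireductone dioxygenase gene Adi1 of methionine salvage (-0.80), CG42336 (-0.69) and CG11686 (-0.69) were lower too, without overlap between the lines.

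Several of the smaller falls encode proteins of the secretory route, and these were picked out after their values were seen. They were Rab1, a GTPase of transport from the endoplasmic reticulum (2.4, 1.67 and 1.53 in p53 RNAi, against 3.1, 4.65, 3.67 and 2.77 in Stat92E RNAi; -0.66 ± 0.17, limma adjusted p = 0.036), Srp9 of the signal recognition particle (-0.65), CG13393, the Dad1 subunit that adds sugar chains (-0.51), and Surf4, a cargo receptor (-0.30). None of them was in the secretory pathway list, where no gene among 29 passed and the median was -0.22. CG9027, the extracellular superoxide dismutase Sod3 (-0.33), CG6672, the zinc transporter ZnT86D (-0.47), Jheh2, a juvenile hormone epoxide hydrolase (-0.42), and alpha-Est7, a carboxylesterase (-0.49), were lower as well.

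The lists of energy metabolism held no call at 0.15 M. None passed among 9 genes of fatty acid synthesis, 10 of triglyceride storage, 14 lipases and oxidation genes, 10 of glycolysis, 13 of gluconeogenesis, trehalose and glycogen, 32 of the respiratory chain and 9 of sugar and insulin signalling, and their medians were between -0.10 and 0.06. The storage and secretory proteins, of which 19 were tested, had a median of -0.25 and no call. The fatty acid synthase gene CG3523 (FASN1) was at 2.65, 1.27 and 4.69 in p53 RNAi, against 1.93, 2.2, 1.59 and 2.14 in Stat92E RNAi (0.29 ± 0.27, limma adjusted p = 0.65), so the p53 RNAi libraries spread to both sides of the other line. The translation repressor Thor was at 42.5, 43.7 and 39.7, against 31.2, 33.3, 25.2 and 32.4 (0.45 ± 0.25, adjusted p = 0.36), without overlap. Of 5 tested genes of p53 and apoptosis none passed. The caspase inhibitor th (Diap1) came nearest, at 4.33, 4.38 and 4.02, against 3.37, 2.1, 3.08 and 3.5 (0.40 ± 0.14, adjusted p = 0.12). These misses do not show that the lines were equal.

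**Figure D4:**
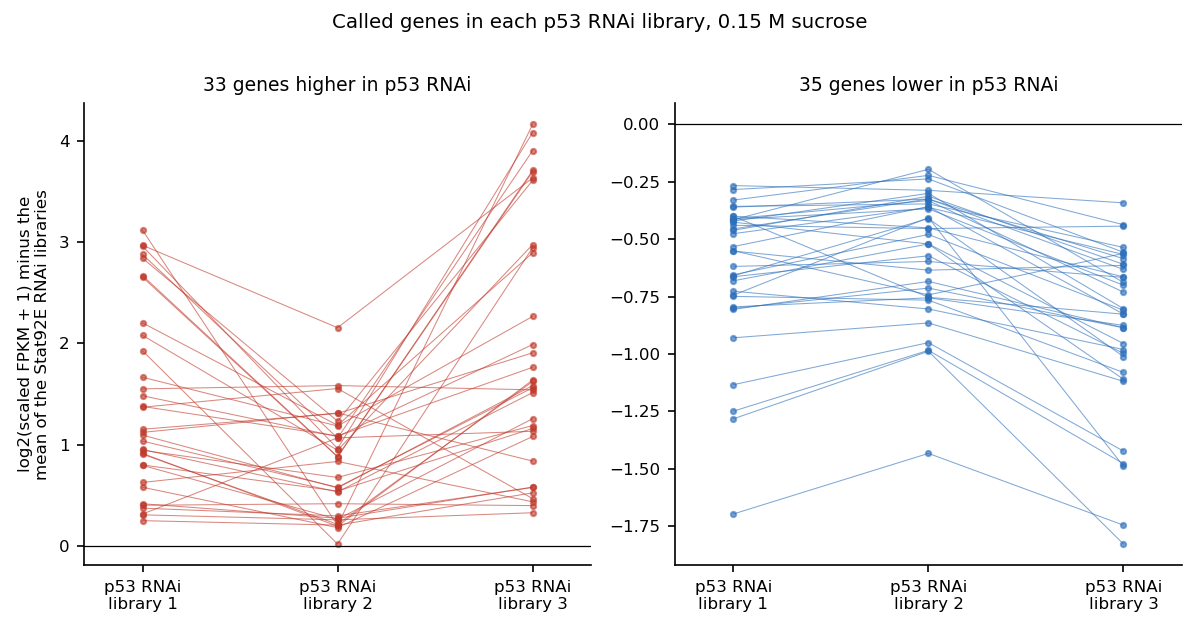
Level of the 68 called genes in p53 RNAi libraries 1 to 3 at 0.15 M, relative to the mean of the 4 Stat92E RNAi libraries (log2 of scaled FPKM + 1; the line at 0 is that mean), each line joining the values of 1 gene. Library 3 is the farthest from Stat92E RNAi in 28 of the 33 rises and 32 of the 35 falls.

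The p53 RNAi libraries differed in how far they were from Stat92E RNAi, as the plot of the called genes by library shows. Library 3 was the highest of the 3 in 28 of 33 rises and the lowest in 32 of 35 falls, while library 2 was the lowest in 26 of the rises. Over all genes tested library 3 was the highest in 24.6% and the lowest in 65%. These shares come from the genes the test called and are a description.

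Placing the lines against the controls gave a different picture for rises and falls. The control mean lay between the line means in 33 of 35 falls and 20 of 33 rises, against 708 of all 2521 genes. It was below both lines in 8 rises, DptB among them, and above both in 5 rises, Stat92E among them. Over all genes tested these were 1092 and 721. Every p53 RNAi library was outside the range of the 4 controls in 12 rises and 15 falls, against 470 of all genes tested. For every Stat92E RNAi library these were 10 rises and 13 falls, against 494. Called genes were picked for a gap between the lines, which favours a control mean in between, so these counts are a description.

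The 0.7 M diet gives the same contrast with means from 8 other libraries, while the spread is estimated over all 8 groups for both diets. There 64 genes were called (2.54%), 21 higher and 43 lower in p53 RNAi. Of the 33 rises at 0.15 M, 26 had the same sign at 0.7 M (78.8%), and of the 35 falls 22 did (62.9%), where 49.4% of all genes tested had the same sign on both diets. The rises had a median change of 0.20 at 0.7 M and the falls of -0.07. Called on both diets in the same direction were 7 genes: TotC, Victoria, DptB and AttC were higher in p53 RNAi, and CG14642, CG7966 and CG1637 were lower. CG1637 was at 6.18, 6.11 and 6.16 in p53 RNAi at 0.15 M, against 9.29, 7.9, 8.65 and 9.15 in Stat92E RNAi (-0.45 ± 0.11, limma adjusted p = 0.024). No gene was called on both diets in opposite directions among the 68.

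**Figure D5:**
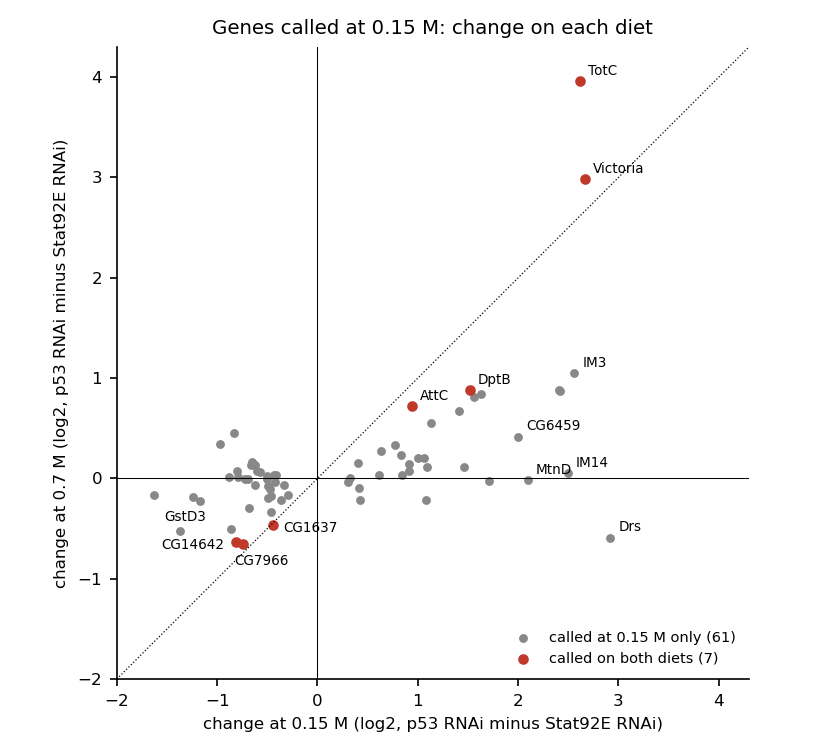
Change between p53 RNAi and Stat92E RNAi (log2) of the 68 genes called at 0.15 M, at 0.15 M on the horizontal and at 0.7 M on the vertical axis; the dotted line marks equal change and red points are the 7 genes called on both diets. TotC and Victoria lie above or near the dotted line, whereas Drs is at 2.92 and -0.59.

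A test of the difference between the diets called 10 genes (0.397%). Drs was the only one of them among the 68. CG10814 had the largest difference (-4.32 ± 0.44, limma adjusted p = 7.57e-07): it was below 0.4 in all 7 libraries at 0.15 M, and at 0.7 M it was at 23.5, 51.5, 7.96 and 45.5 in p53 RNAi, against 0.197, 0.254, 0.123 and 0.447 in Stat92E RNAi. CaBP1, a protein disulfide isomerase of the endoplasmic reticulum, was at 4.13, 4.75 and 3.96 in p53 RNAi at 0.15 M, against 4.9, 3.12, 5.22 and 4.66 in Stat92E RNAi. At 0.7 M it was at 19.4, 35.8, 10.3 and 35.1, against 5.49, 5, 5.25 and 5.86 (difference -1.92 ± 0.36, adjusted p = 0.0081). Both genes were highest in the same 2 p53 RNAi libraries at 0.7 M.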

How the data were processed

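RNA-seq of larval fat body is given per gene as FPKM in the authors' deposited table; the submitters' processing notes name TopHat 1.3.2, Bowtie 0.12.7, Cufflinks 1.1.0 and the dm3 build. The deposited FPKM had been scaled so that 2464 or 2465 genes reach 1 in each of the 31 libraries used, a step that no label states; no counts were given and strand use is not given in the sources used here. The 30 columns of other experiments were not used. Columns were matched to groups by heading; library numbers follow column order.

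Differences were fitted with limma 3.58.1 (R 4.3.3; Python 3.11.15 for tables) on log2(scaled FPKM + 1), empirical Bayes with a mean-variance trend, 8 group means, genes with a mean of at least 1 (2521 of 14659), two-sided p adjusted by Benjamini-Hochberg, called under 0.05, and tested on simulated data. Targeted transcripts had exact permutation tests. Genes were matched by CG number to RefSeq (13055) for current names and neighbours. Fragments were estimated by taking as 1 fragment the point where the distribution of value times median annotated transcript length begins in a library. The members and the 42 gene lists (974 of 993 members found) were chosen with earlier results of these data known. Named are the targeted genes, up to 4 called members per list (2 where none was called), and the 12 largest rises and falls without overlap and whose mean in either line was 5 or more; others are said to be chosen later or are shown as list members. Alternatives were a pseudocount of 0.1, other filters, rescaling, no trend, fewer libraries and each library left out.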

Additional observations from a re-analysis of the deposited data

Results flagged for a closer look

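In 3 of 37 genes examined, 1 of the 4 Stat92E RNAi libraries at 0.15 M stood far above the others, by a rule that chance meets in about 5% of groups. Each time it was library 2: noncoding_15268 at 32.1 scaled FPKM, CG16926 at 128 and MtnD at 5.42. That library was also high in gut markers and least like the rest of its group. It had the most genes above 0 of its group (8844), as did library 2 of the controls (8709) and of FOXO RNAi (8939) at 0.15 M. In p53 RNAi at 0.15 M library 2 had the fewest (8212). At 0.7 M library 2 had the most in every group but Stat92E RNAi, where it had the fewest (7518). The part of these features in the 3 values was not tested.

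The change between p53 RNAi and Stat92E RNAi at 0.15 M minus that at 0.7 M passed the test of the difference in 10 genes. It was positive for Drs (3.51), CG34131 (2.36), CG17919 (1.18), Rox8, an RNA-binding protein gene (0.89), and jagn (0.53). It was negative for CG10814 (-4.32), TotA (-2.38), CaBP1 (-1.92), CG7188, the Bax inhibitor gene BI-1 (-0.92), and CG4164 (-0.62). CG34131 was near 0 in 3 of the 4 p53 RNAi libraries at 0.7 M and at 3.58 in the other, against 2.98 to 3.81 in Stat92E RNAi. CG17919 was at 3.26 to 3.49 in p53 RNAi at 0.7 M, against 9.3 to 10.3 in Stat92E RNAi.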

How the results depend on the processing

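No paired analysis was possible because only the p53 RNAi headings at 0.15 M carry replicate numbers. No gene called at 0.15 M, at 0.7 M or in the difference between diets changed sign in an alternative in which it was tested. Values that were not called did: without p53 RNAi library 3 the change of CG3523 was -0.04, the median of all genes tested was 0.01, and the medians of 7 of the 42 lists changed sign, glutathione enzymes (0.03) among them. The 68 calls at 0.15 M became 136 with no filter, 32 with a mean of at least 5, 0 with only the groups compared, and, in alternatives chosen after seeing the data, 18 with only the 0.15 M libraries and 6 without p53 RNAi library 3 and Stat92E RNAi library 2; leaving out 1 library gave 7 to 94. The 64 calls at 0.7 M became 30 with a mean of at least 5 and 108 with only the groups compared, and 27 to 44 without 1 library. The 10 differences between diets became 19 with no filter, 3 with a mean of at least 5 and 48 with only the groups compared, and 4 to 19 without 1 library (4 without p53 RNAi library 1 or 3 at 0.15 M, p53 RNAi library 4 or Stat92E RNAi library 1 at 0.7 M, 5 without p53 RNAi library 2 at 0.7 M, and 19 without p53 RNAi library 2 at 0.15 M). The Stat92E difference at 0.15 M was 0.67 to 0.98 without 1 library, where the smallest exact p is above 0.05. At 0.7 M it was 0.20 to 0.28 without 1 library, and 0.25 with an exact permutation p of 0.0286 after rescaling; without Stat92E RNAi library 4 the exact permutation p was also 0.0286. The cause of these shifts was not tested beyond the fewer genes or libraries used. Values near 1 rest on few fragments.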

Other observations

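Deviations from the group mean in p53 RNAi library 3 correlated with those in Stat92E RNAi library 2 at r = 0.28 over 2521 genes and with those in library 3 at -0.31; for p53 RNAi library 2 the values were -0.28 and 0.32. These are correlations across genes, and genes are not independent replicates. Control library 2 was the highest of the 4 controls at 0.15 M in 18 of the 33 rises and the lowest in 6, Mtk among them; over all genes tested it was the highest in 21.7%. It had 44.7 for Drs against 22.7 to 27.9 in the other controls, 21.6 against 0.835 to 2.14 for TotC and 12.5 against 4.85 to 5.48 for CG6459. Stat92E itself was at 4.26 there, against 1.77 to 2.49 in the other controls.

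Several called genes were neighbours on the chromosome, and each such pair moved the same way. Dpt and DptB, CG16836 and IM3, and MtnD and Stat92E had no gene between them, PGRP-SC1a and PGRP-SC1b, CG12224 and mfas, and AttC and IM10 had 1, and CG33470 and IM10 had 2. The midline fasciclin gene mfas was at 5.07, 3.54 and 7.95 in p53 RNAi, against 2.35, 1.88, 2.18 and 2.15 in Stat92E RNAi (1.00 ± 0.23, limma adjusted p = 0.02), and CG5174 at 3.96, 7.34 and 7.73, against 3.01, 3.39, 2.78 and 2.77 (0.84 ± 0.23, adjusted p = 0.047).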
